A study of Homo sapiens with 6 samples.

Results

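Colorectal tumour cells keep, to a varying degree, the transcription factors that give gut and liver epithelium their identity. The 8 factors examined here were HNF4A, HNF4G, CDX1, CDX2, FOXA1, FOXA2, GATA6 and KLF5, chosen by gene symbol from the 56303 genes of the deposited count table. HNF4A and HNF4G are nuclear receptors that switch on genes of lipid transport and absorption. CDX1 and CDX2 are homeobox proteins that set intestinal fate. FOXA1 and FOXA2 are forkhead pioneer factors, which bind closed chromatin and let other factors in. GATA6 is a zinc finger factor of the endoderm, and KLF5 is a zinc finger factor of dividing crypt cells. Such factors act in combination, and each tends to bind near the genes of the others. HNF4, FOXA and HNF1 factors are also the regulators of secreted liver proteins, some of which colorectal cancer cells transcribe at low levels.

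The libraries came from SW480, a human colorectal adenocarcinoma line with the labelled genotype WT and a non-silencing hairpin (shCtrl, 3 libraries) or with a hairpin against MORC2 and the labelled genotype MORC2 knockdown (shMORC2, 3 libraries). MORC2 is a nuclear ATPase of the microrchidia family that takes part in gene silencing. Per the study's methods, both hairpins were brought in by lentivirus and the cells were selected with puromycin as stable clonal lines. Only 1 control group and 1 hairpin group were compared, and the labels do not say how many cell populations each held. A difference between the populations and an effect of MORC2 loss cannot be told apart. The replicates were described as repeat experiments, and nothing says whether they came from separate infections, so p-values measure the spread between these libraries.

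Total counts ran from 42092664 to 43434425 per library. MORC2 itself stood at 46.1, 46.4 and 48.8 CPM (counts brought to a common library size with TMM factors) in shCtrl and at 35.03, 29.3 and 27.2 CPM in shMORC2 (log2 fold change -0.63, SE 0.095, edgeR adjusted p 0.000216), although an antisense gene shares 1616 of its 6258 exonic bases. The epithelial markers EPCAM, CDH1, KRT8, KRT18 and KRT19 were all abundant, and 0 of 5 were called. Of the 8 colonic markers, 7 were tested, with CDX2 and KRT20 called higher and CEACAM5 lower. LGALS4, GPA33 and CDH17 were low, with at most 18, 36 and 60 counts in any library. Some markers of other cell types were near 0, among them PTPRC, CD3E, MS4A1, CDH5, KDR and DCN, and others were expressed. At most 10 counts in any library were found for 3 of 7 fibroblast, 4 of 7 immune and 3 of 5 endothelial markers. The same held for 2 of 5 squamous, 4 of 5 endocrine and 1 of 6 gastric markers. Those called were KRT5 and SOX2 of 3 squamous markers tested, CD68 of 3 immune and THY1 of 4 fibroblast markers tested. VWF of 2 endothelial markers tested and SYP, the 1 endocrine marker tested, were called as well, and all were higher in shMORC2. Of all genes tested, 39.5% were called, 19.9% higher and 19.6% lower, so these counts are no result about a cell type. The summed squamous list ran from 73.6 to 113.8 CPM in shCtrl and from 189.0 to 205.0 CPM in shMORC2, and the summed immune list from 38.1 to 47.5 and from 59.1 to 110.4 CPM. Of 6 gastric markers, 5 were tested, with MUC6 called higher and MUC5AC, TFF1 and TFF2 lower. The part of these shifts in the results below was not tested.

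RefSeq (GRCh38.p14) lists windows of 300 bases around the start site, 250 before it and 50 from it on, for 5 of the 8 factors (HNF4A, CDX2, FOXA1, GATA6 and KLF5, not CDX1, FOXA2 and HNF4G). The window of CDX2, the factor that rose, is shown with those of both starts of HNF4A, since gene counts cannot separate transcripts from the upstream and the downstream start, and with that of AFP, a liver gene that fell to 0. They lie at chr13:27969266-27969565 (minus strand), chr20:44355449-44355748 (plus strand), chr20:44400989-44401288 (plus strand) and chr4:73435971-73436270 (plus strand). Capitals mark the letters searched, on both strands. Forkhead factors such as FOXA2 were represented by the letters TGTTTNC, and the HNF1 factors by the letters GTTAAT. For the HNF4 receptors the letters were CAAAGTC, and for the CDX proteins they were TTTATNG. The GATA factors were represented by the letters AGATAA, and the KLF factors by the letters GGGNGGG.
CDX2: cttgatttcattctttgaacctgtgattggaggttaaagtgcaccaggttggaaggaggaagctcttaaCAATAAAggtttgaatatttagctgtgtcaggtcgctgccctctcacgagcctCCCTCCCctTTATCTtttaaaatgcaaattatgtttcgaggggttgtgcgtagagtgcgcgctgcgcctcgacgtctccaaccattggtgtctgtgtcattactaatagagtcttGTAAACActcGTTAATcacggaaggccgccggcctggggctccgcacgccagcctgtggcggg
HNF4A, upstream start: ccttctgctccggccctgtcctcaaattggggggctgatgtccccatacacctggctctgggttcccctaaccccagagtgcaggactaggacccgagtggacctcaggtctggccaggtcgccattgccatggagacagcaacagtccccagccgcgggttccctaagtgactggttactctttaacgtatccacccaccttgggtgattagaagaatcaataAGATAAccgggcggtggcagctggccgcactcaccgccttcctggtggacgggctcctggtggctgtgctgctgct
HNF4A, downstream start: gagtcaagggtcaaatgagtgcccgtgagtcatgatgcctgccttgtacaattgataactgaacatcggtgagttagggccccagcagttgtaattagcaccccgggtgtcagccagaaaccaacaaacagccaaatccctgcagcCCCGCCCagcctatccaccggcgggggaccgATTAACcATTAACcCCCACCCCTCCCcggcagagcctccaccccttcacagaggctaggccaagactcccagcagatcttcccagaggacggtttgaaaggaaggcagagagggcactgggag
AFP: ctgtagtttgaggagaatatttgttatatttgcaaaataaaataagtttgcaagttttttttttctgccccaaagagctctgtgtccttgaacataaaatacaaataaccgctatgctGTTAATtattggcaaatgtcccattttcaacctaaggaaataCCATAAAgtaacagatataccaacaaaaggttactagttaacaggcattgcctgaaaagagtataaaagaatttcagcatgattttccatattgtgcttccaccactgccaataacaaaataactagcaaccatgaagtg
The CDX2 window held 1 match each to the FOXA, HNF1, CDX, GATA and KLF letters and 0 to the HNF4 letters. Its FOXA and HNF1 letters lay at positions -13 to -7 and -3 to 3 from the start, where the first transcribed base is 1 and there is no position 0. The upstream HNF4A window held 1 GATA match, at -26 to -21. The downstream one held 2 HNF1 matches, at -73 to -68 and -66 to -61, and 3 KLF matches, of which the last 2 overlap. The AFP window held 1 HNF1 match, at -132 to -127, and 1 CDX match, at -90 to -84. Among 35116 RefSeq windows of this length, 18.0% held the FOXA letters, 6.88% the HNF1, 3.37% the HNF4, 9.73% the CDX, 10.3% the GATA and 54.1% the KLF letters. A match describes these letters and does not show a bound site.

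The levels of the factors covered a wide range. Per exon length, in RPKM (counts per exon length and library total, from the authors' table), KLF5 was highest in shCtrl with a mean of 63.4, followed by FOXA2 with 40.2, HNF4A with 9.38, CDX2 with 3.71, GATA6 with 0.791 and HNF4G with 0.706. The ranges of GATA6 (0.646 to 0.975) and HNF4G (0.564 to 0.837) overlapped in shCtrl, so that these neighbours in the order did not differ beyond their spread, while those of KLF5, FOXA2, HNF4A and CDX2 were separate from each other. In shMORC2 the order was the same, with means of 58.1, 25.2, 8.52, 5.10, 0.527 and 0.483, and GATA6 and HNF4G again overlapped. By mean RPKM over all libraries, KLF5 stood above 96.4% of the 21005 genes tested, FOXA2 above 93.0% and HNF4A above 77.1%, but HNF4G above only 21.4%. CDX1 and FOXA1 did not reach the filter on low counts. One member of each paralogue pair CDX1 and CDX2, FOXA1 and FOXA2, was thus near the limit of detection.

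**Figure D1:**
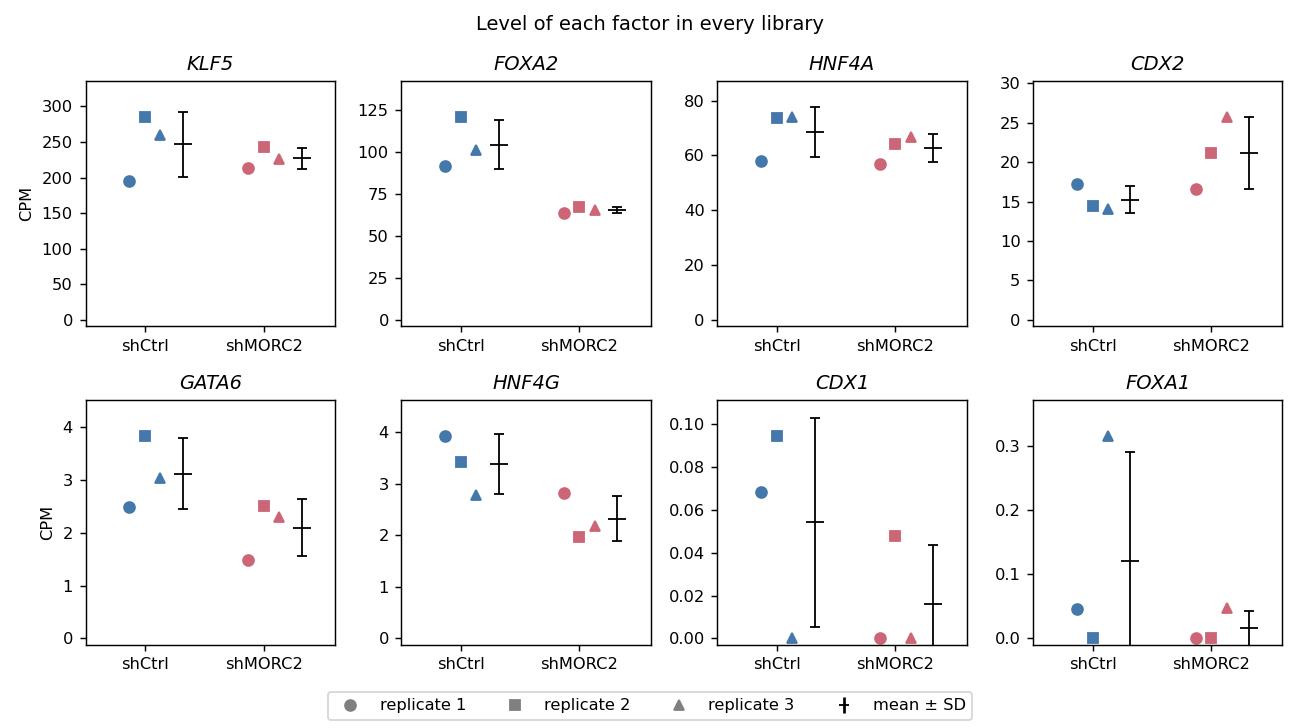
CPM of each factor in the 3 shCtrl and 3 shMORC2 libraries (points, shape by replicate number), with mean and SD. Each panel has its own axis; only for FOXA2 among the tested factors do the groups not overlap, and the CDX1 and FOXA1 points are 0 to 13 counts.

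Differences were tested with edgeR's quasi-likelihood method and called where the adjusted p was below 0.05. Of the 6 factors tested, 3 were called: FOXA2 and HNF4G were lower in shMORC2 and CDX2 was higher. Across all genes, 39.5% of those tested were called, 19.6% lower and 19.9% higher. With so wide a change across the transcriptome, the count by itself is no result about the factors, and the values of each one follow. The groups did not overlap for 1 of the 6, against 50.2% of all genes tested (25.1% lower in shMORC2 and 25.1% higher). In bulk libraries, fewer cells with a transcript and less of it per cell cannot be told apart.

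FOXA2 (chromosome 20, 22581005 to 22585455, minus strand) had the largest change for its error among the factors. It stood at 91.8, 120.8 and 101.2 CPM in the shCtrl libraries and at 63.98, 67.6 and 65.9 CPM in the shMORC2 libraries. All 3 knockdown libraries lay below all 3 controls, and they differed little among themselves. The fitted log2 fold change came to -0.67 (SE 0.095, 95% interval -0.87 to -0.46, edgeR adjusted p 0.000132), that is, 62.9% of shCtrl remained. None of the 16 alternatives ended the call: the log2 fold change stayed between -0.76 and -0.55, and the adjusted p ran from 1.66e-12 to 0.0104. LINC00261, the long noncoding RNA gene next to it on the same strand, was not called (log2 fold change -0.14, SE 0.14, edgeR adjusted p 0.466), except without shMORC2 replicate 1 (-0.31).

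CDX2 (chromosome 13, 27962137 to 27971139, minus strand) moved the other way. It was at 17.2, 14.5 and 14.1 CPM in shCtrl and at 16.7, 21.2 and 25.7 CPM in shMORC2. Replicate 1 of shMORC2 lay below replicate 1 of shCtrl, so the groups overlapped, and replicates 2 and 3 of shMORC2 lay above every control. The fitted log2 fold change came to 0.47 (SE 0.14, 95% interval 0.17 to 0.77, edgeR adjusted p 0.0158), or 1.39-fold higher. The call was lost without shCtrl replicate 2 (log2 fold change 0.43), without shCtrl replicate 3 (0.42) and without shMORC2 replicate 3 (0.31), and over 16 alternatives the adjusted p ran from 0.00014 to 0.153. CDX1 (chromosome 5, 150166795 to 150184558) was close to absent, with 3, 4 and 0 counts in the controls and 0, 2 and 0 after knockdown. With a floor of 3 counts, or 0.0676 to 0.0729 CPM per library, no difference in CDX1 was detectable at this depth.

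HNF4G (chromosome 8, 75407914 to 75566843) was low in every library. It stood at 3.92, 3.43 and 2.77 CPM in shCtrl and at 2.82, 1.97 and 2.18 CPM in shMORC2. The highest knockdown library, replicate 1, was level with the lowest control, replicate 3. The fitted log2 fold change came to -0.54 (SE 0.19, 95% interval -0.95 to -0.12, edgeR adjusted p 0.0397), that is, 68.9% of shCtrl remained. This call was lost without shCtrl replicate 1 (-0.42), shCtrl replicate 2 (-0.53), shMORC2 replicate 2 (-0.43) or shMORC2 replicate 3 (-0.49), and with DESeq2, with an adjusted p from 0.0085 to 0.218 over 14 alternatives.

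HNF4A (chromosome 20, 44355700 to 44434596, plus strand), its far more abundant paralogue, was not called. It stood at 58.1, 73.8 and 73.8 CPM in shCtrl and at 56.9, 64.1 and 66.8 CPM in shMORC2. Replicate 1 was the lowest library of each group, and the groups overlapped. The fitted log2 fold change came to -0.13 (SE 0.10, edgeR adjusted p 0.323), with a 95% interval from -0.35 to 0.085. Without shCtrl replicate 1 the log2 fold change became -0.24 and was called, and over 16 alternatives the adjusted p ran from 0.0474 to 0.668.

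GATA6 (chromosome 18, 22169443 to 22202528, plus strand) was at 2.49, 3.83 and 3.04 CPM in shCtrl and at 1.49, 2.498 and 2.30 CPM in shMORC2. Within each replicate number the knockdown library was the lower of the pair, and across numbers the groups met, as shMORC2 replicate 2 was level with shCtrl replicate 1. The log2 fold change of -0.57 missed the threshold (SE 0.22, 95% interval -1.05 to -0.096, edgeR adjusted p 0.0550). With the replicate number as a block it was called, at a log2 fold change of -0.58 and an adjusted p of 0.00606, which made 4 of 6 factors called against 49.0% of all genes under the block. It was also called without shCtrl replicate 1 (-0.72) and without shMORC2 replicate 2 (-0.72), and over 14 alternatives the adjusted p ran from 0.00606 to 0.234. An antisense gene, RP11-627G18.1, shares 321 of the 3945 exonic bases of GATA6, and it was called lower as well, from 0.928 ± 0.119 to 0.50 ± 0.15 CPM (SD, n = 3 each; log2 fold change -0.89, SE 0.32, edgeR adjusted p 0.0395). That call was lost without any one of the shCtrl libraries and without shMORC2 replicate 1 or 2 (-0.96 to -0.67), and with DESeq2. Whether reads were counted by strand is not given in the sources used here, so those of the shared bases cannot be assigned with certainty.

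KLF5 (chromosome 13, 73054976 to 73077542, plus strand), the most abundant factor, stood at 195.6, 284.4 and 259.7 CPM in shCtrl and at 212.8, 242.8 and 225.5 CPM in shMORC2. The shCtrl libraries spanned the whole range of the knockdown libraries. The fitted log2 fold change came to -0.12 (SE 0.11, 95% interval -0.37 to 0.13, edgeR adjusted p 0.435). Without shCtrl replicate 1 it became -0.26 and was called, and without shCtrl replicate 2 it was -0.0062, with an adjusted p from 0.0256 to 0.975 over 16 alternatives. FOXA1 (chromosome 14, 37589984 to 37596059, minus strand) gave 2, 0 and 13 counts in the controls and 0, 0 and 2 after knockdown. Most of its counts came from shCtrl replicate 3, and no level could be compared.

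**Figure D2:**
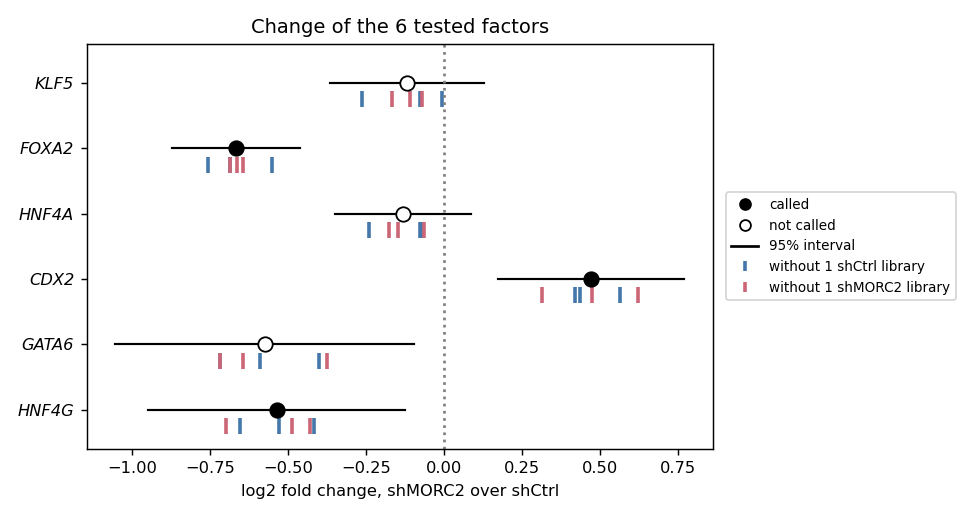
Fitted log2 fold change of shMORC2 over shCtrl for the 6 factors tested (circle, filled where the edgeR adjusted p was under 0.05) with its 95% interval; ticks are the fits that each left out 1 library. FOXA2 stays between -0.76 and -0.55 throughout, while the ticks of CDX2 run from 0.31 to 0.62.

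Replicate 1 of shCtrl lay at one end of its group for each tested factor. It was the lowest shCtrl library for KLF5, FOXA2, HNF4A and GATA6 and the highest for CDX2 and HNF4G. Leaving it out raised the number of factors called from 3 to 5, with 4 lower and 1 higher, whereas leaving out shCtrl replicate 2 or shMORC2 replicate 3 left only FOXA2. Of all genes tested, these fits called 7898 of 21521, 6428 of 21594 and 6268 of 21598. Over the 6 libraries, as a description of points that share both the group difference and the replicate number, HNF4A and KLF5 ran together (Pearson r 0.90 of log2 CPM), as did FOXA2 and GATA6 (0.85), while CDX2 and FOXA2 ran in opposite directions (-0.75).

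Ratios within a library do not depend on the scaling between libraries and were used to set the factors against each other. The HNF4A to HNF4G ratio of RPKM was 9.73, 14.2 and 17.5 in shCtrl and 13.3, 21.4 and 20.1 in shMORC2, and the groups overlapped (mean log2 difference 0.41, exact permutation test, two-sided, p 0.3, where 0.1 is the smallest p that 3 libraries against 3 allow). It was higher in shMORC2 in each of the 3 pairs of equal number (exact paired permutation test, two-sided, p 0.25, the smallest that 3 pairs allow). Of the 2 further ratios, chosen after the values were seen, FOXA2 to HNF4A was 4.437, 4.596 and 3.85 in shCtrl and 3.16, 2.96 and 2.77 in shMORC2. Every knockdown library lay below every control, with a mean log2 difference of -0.53. CDX2 to FOXA2 was 0.118, 0.0758 and 0.0878 in shCtrl and 0.164, 0.198 and 0.246 in shMORC2, again without overlap, with a mean log2 difference of 1.11. These 2 are given as a description, with no test. The CDX1 to CDX2 and FOXA1 to FOXA2 ratios gave no value, since CDX1 and FOXA1 were at 0 in some libraries.

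**Figure D3:**
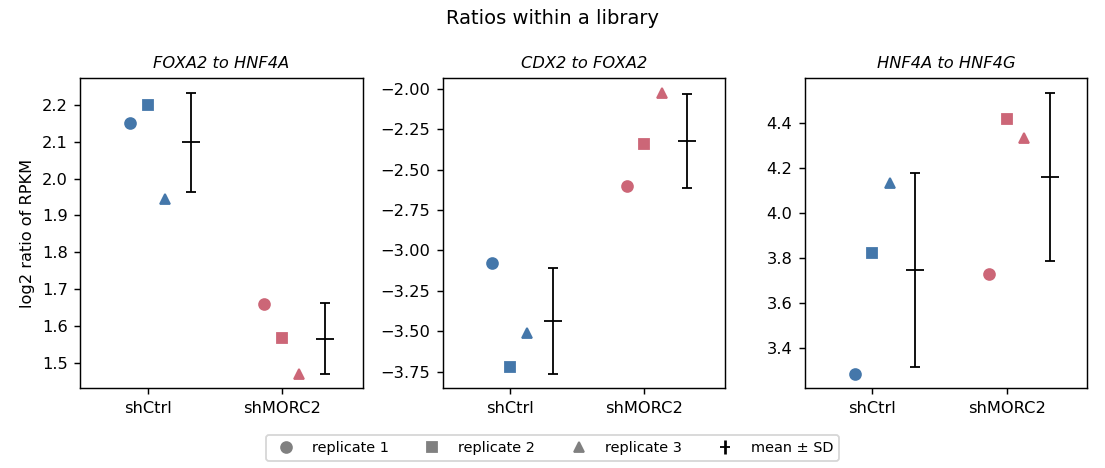
Log2 ratio of RPKM between 2 factors in each of the 3 shCtrl and 3 shMORC2 libraries (points, shape by replicate number), with mean and SD; axes differ between panels and do not start at 0. The groups are separate for FOXA2 to HNF4A and CDX2 to FOXA2 and overlap for HNF4A to HNF4G.

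The genes around the factors were examined next. Within 100 kb of a factor lay 46 other genes, of which 16 were tested and 7 called, 5 higher and 2 lower, while 39.5% of all genes tested were called, so this count is no result about the surroundings of the factors. Without shCtrl replicate 2, shCtrl replicate 3 or shMORC2 replicate 2 the number called was 4, 3 and 4, all of them higher, and without shCtrl replicate 1 it was 6, again all higher. In the same order, these fits called 6428 of 21594, 6707 of 21663, 6553 of 21635 and 7898 of 21521 genes tested. Of the 7 tested neighbours of HNF4A, 4 were called, all of them higher, against 19.9% of all genes tested. The nearest, RP5-881L22.5, is a gene on the other strand whose start lies 515 bases upstream of HNF4A, and it rose from 4.54 ± 0.28 to 7.39 ± 0.538 CPM (SD, n = 3 each; log2 fold change 0.70, SE 0.12, edgeR adjusted p 0.000666). PKIG, a protein kinase A inhibitor gene, lies 97189 bases away and rose from 9.79 ± 0.448 to 22.99 ± 1.08 CPM (log2 fold change 1.23, SE 0.092, edgeR adjusted p 8.63e-07). TTPAL and SERINC3 had log2 fold changes of 0.48 and 0.28 (edgeR adjusted p 0.0116 and 0.00871), and the call of TTPAL was lost without shCtrl replicate 3 (0.37). RPL7P1, a pseudogene near CDX1 whose reads can be shared with its parent gene, was called higher (0.30) and PIBF1 near KLF5 lower (-0.30), with edgeR adjusted p of 0.0282 and 0.0421. The call of RPL7P1 was lost without shCtrl replicate 2 or 3 and without shMORC2 replicate 1 or 2 (log2 fold change 0.23 to 0.31). That of PIBF1 was lost without any one of the shCtrl libraries and without shMORC2 replicate 2 or 3, and without the last its log2 fold change was -0.18. The single tested neighbour of CDX2, PDX1, had 12, 2 and 5 counts in shCtrl and 14, 11 and 18 in shMORC2 and was not called (edgeR adjusted p 0.110), except without shCtrl replicate 1 (log2 fold change 1.95). HNF4A-AS1, antisense to HNF4A, had at most 1 count in any library.

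The 14329 genes that averaged 100 counts or more were compared with each factor over the 6 libraries, as a description. Those whose log2 CPM ran most like FOXA2 were RP11-66B24.2 and TBC1D20 (Pearson r 0.998 for both), and 709 genes exceeded 0.95. Those most like CDX2 were BRE and USP22 (0.990 and 0.986, with 44 genes above 0.95), and those most like HNF4G were PPIAP29 and TGFBRAP1 (0.994 and 0.992, with 129 above 0.95). For HNF4A, 71 genes exceeded 0.95, among them GPC1 (0.987). Those most like GATA6 were CEMIP and IFITM10 (0.999 and 0.998, with 209 above 0.95), and those most like KLF5 were EREG and SLC26A6 (0.995 and 0.994, with 33 above 0.95). The points share libraries and the group difference, and with 6 of them many genes reach such values.

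The paralogues of the factors were mostly lower in shMORC2. Of 23 listed, 15 were tested, and 10 were called lower and 1 higher, against 19.6% and 19.9% of all genes tested. The median log2 fold change was -0.56, against -0.0056 over all genes tested. FOXA3, the forkhead paralogue of FOXA1 and FOXA2, stood at 7.597, 12.1 and 11.9 CPM in shCtrl and at 4.599, 6.97 and 6.11 CPM in shMORC2 (log2 fold change -0.84, SE 0.18, edgeR adjusted p 0.00298), so that both expressed FOXA genes fell. Of 16 KLF genes, 12 were tested, with 8 lower, 1 higher and 3 not called. KLF4, a factor of goblet cell differentiation, fell from 9.63 ± 0.538 to 4.43 ± 0.582 CPM (SD, n = 3 each; log2 fold change -1.12, SE 0.13, edgeR adjusted p 2.37e-05). KLF9 and KLF15, factors that respond to glucocorticoids, fell to 29.02% and 34.9% of control (edgeR adjusted p 0.000118 and 0.000377). KLF14 rose from 10, 4 and 10 counts to 41, 66 and 44 (log2 fold change 2.63, SE 0.40, edgeR adjusted p 0.000212). GATA3 was called lower (log2 fold change -0.73, edgeR adjusted p 0.0187), a call lost without shCtrl replicate 3 and without shMORC2 replicate 2 or 3. GATA2 was not called, except without shMORC2 replicate 1 (0.41), and GATA4 had 4 to 6 counts in each control and 0 in every knockdown library.

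Other factors of gut and liver moved in both directions. Of 38 listed, 32 were tested, with 7 called higher and 10 lower, against 19.9% and 19.6% of all genes tested. The median log2 fold change was -0.13. Of the epithelial ETS factors listed, EHF and ELF3 fell and SPDEF was not called (log2 fold change -0.59, edgeR adjusted p 0.212). EHF went from 164.4 ± 4.50 to 66.6 ± 2.75 CPM (SD, n = 3 each; log2 fold change -1.30, SE 0.073, edgeR adjusted p 9.77e-08), and ELF3 from 97.2 ± 27.3 to 49.96 ± 6.60 CPM (log2 fold change -0.96, SE 0.16, edgeR adjusted p 0.000522). NR2F6, an orphan nuclear receptor, fell by 0.80 on the log2 scale. Exons of ELF3 and NR2F6 overlap those of other annotated genes, so that some of their reads are uncertain. CEBPB, a leucine zipper factor of the acute-phase response, fell from 27.0, 46.9 and 38.2 CPM to 14.2, 14.2 and 14.5 CPM (log2 fold change -1.38, SE 0.15, edgeR adjusted p 1.79e-05), and an antisense gene shares 231 of its exonic bases. MAF, a leucine zipper factor, rose from 2, 4 and 10 counts to 77, 107 and 80 (log2 fold change 3.999, SE 0.40, edgeR adjusted p 8.76e-06). ISX, an intestine-specific homeobox factor, rose from 2.07 ± 0.276 to 4.45 ± 0.427 CPM (log2 fold change 1.10, SE 0.17, edgeR adjusted p 0.000202). ONECUT3 and GFI1 were called higher, with log2 fold changes of 0.77 and 0.56. The call of GFI1 was lost without shCtrl replicate 1 or 3 and without shMORC2 replicate 1 or 3, where its log2 fold change ran from 0.45 to 0.59.

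**Figure D4:**
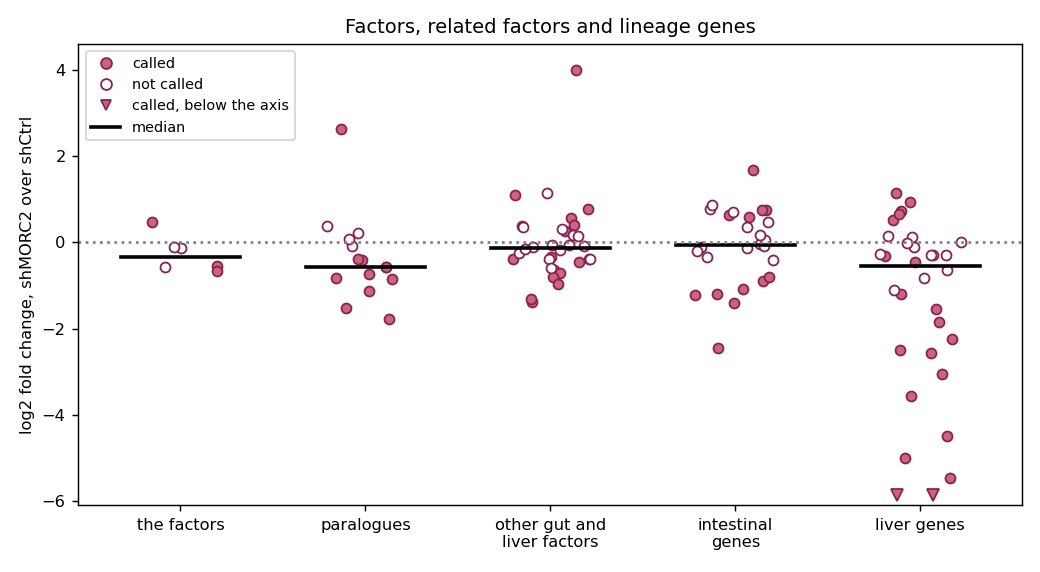
Fitted log2 fold change of every tested gene of 5 lists (filled where the edgeR adjusted p was under 0.05), with the median of each list as a bar; AFP and APOB, at 0 counts in shMORC2, lie below the axis. The factors spread around their median of -0.33, and the liver genes reach the lowest values of the lists.

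Intestinal genes showed no common direction. Of 46 listed, 26 were tested, with 5 called higher, 7 lower (39.5% of all genes tested were called) and a median log2 fold change of -0.072, and 18 had at most 10 counts in any library. Those that rose included KRT20, a keratin of mature intestinal epithelium, from 9.49 ± 1.31 to 15.9 ± 4.08 CPM (SD, n = 3 each; log2 fold change 0.75, SE 0.16, edgeR adjusted p 0.00305), and TFF3, a goblet cell peptide, from 20.3 ± 1.2 to 31.5 ± 2.97 CPM (log2 fold change 0.63, SE 0.093, edgeR adjusted p 0.000161). SLC40A1, the iron exporter ferroportin, rose by 0.75 on the log2 scale. CDHR1 rose by 1.68 and is among the 5 called higher, although it is a cadherin of photoreceptors and no intestinal marker. Of those that fell, CDHR5, an adhesion protein of microvilli, went from 2.81 ± 0.22 to 0.517 ± 0.156 CPM (log2 fold change -2.44, SE 0.25, edgeR adjusted p 8.69e-06), and FABP1, the liver fatty acid binding protein, from 7.0 ± 0.73 to 3.05 ± 0.474 CPM (log2 fold change -1.2, SE 0.15, edgeR adjusted p 5.2e-05). SLC5A1, the sodium-glucose cotransporter, and MTTP, which loads lipid onto APOB, had log2 fold changes of -1.41 and -1.22. MTTP had 7 to 22 counts per library, and its call was lost in each of the 6 fits that left out 1 library. VIL1, a structural protein of microvilli and a colonic marker, was not called (log2 fold change -0.048, edgeR adjusted p 0.653), and its sign turned without shMORC2 replicate 1 (0.015).

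More liver genes were called lower than higher. Of 52 listed, mostly genes of secreted plasma proteins, 32 were tested. Of these, 15 were called lower and 5 higher, against 19.6% and 19.9% of all genes tested. The list was chosen with earlier results of these data known, so the comparison with all genes is a description and no test. The median log2 fold change was -0.55. The summed list did not fall, as it ran from 174.6 to 207.8 CPM in shCtrl and from 176.7 to 217.6 CPM in shMORC2. The genes called lower were ALB, AFP, APOA1, APOA2, APOB, APOM, TF, FGB, FGG, VTN, AMBP, C3, CP, ITIH2 and ASGR2. AFP, the fetal counterpart of albumin, had 219, 262 and 218 counts in shCtrl, while every shMORC2 library had 0. With a floor of 3 counts per library this is at least 78.5-fold lower, with an edgeR adjusted p of 7.46e-08. APOB, the core protein of lipoproteins, had 202, 230 and 203 counts against 0 in each, or at least 71.3-fold lower (edgeR adjusted p 8.02e-08). FGB, a fibrinogen chain, had 48, 34 and 56 counts in shCtrl against 2, 2 and 0, a ratio of 34.9 with a 95% counting interval of 13.3 to 129.7. ITIH2 had 34, 34 and 36 counts against 0, 2 and 0, a ratio of 52.5 with an interval of 14.2 to 439.6. These intervals cover counting error only and treat each count as independent, which counts of read mates are not. FGA, another fibrinogen chain, rose from 2.09 ± 0.213 to 3.99 ± 0.962 CPM (SD, n = 3 each; log2 fold change 0.94, SE 0.19, edgeR adjusted p 0.00196), and F10, a coagulation factor, from 14.1 ± 1.5 to 23.3 ± 3.34 CPM (log2 fold change 0.72, SE 0.12, edgeR adjusted p 0.000358). PCK1 and ASGR1 were called higher with overlapping groups, and both calls were lost without shCtrl replicate 1 or 3 and without shMORC2 replicate 2 or 3. Their log2 fold changes of 1.14 and 0.66 became 0.58 and 0.38 without shMORC2 replicate 2.

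**Figure D5:**
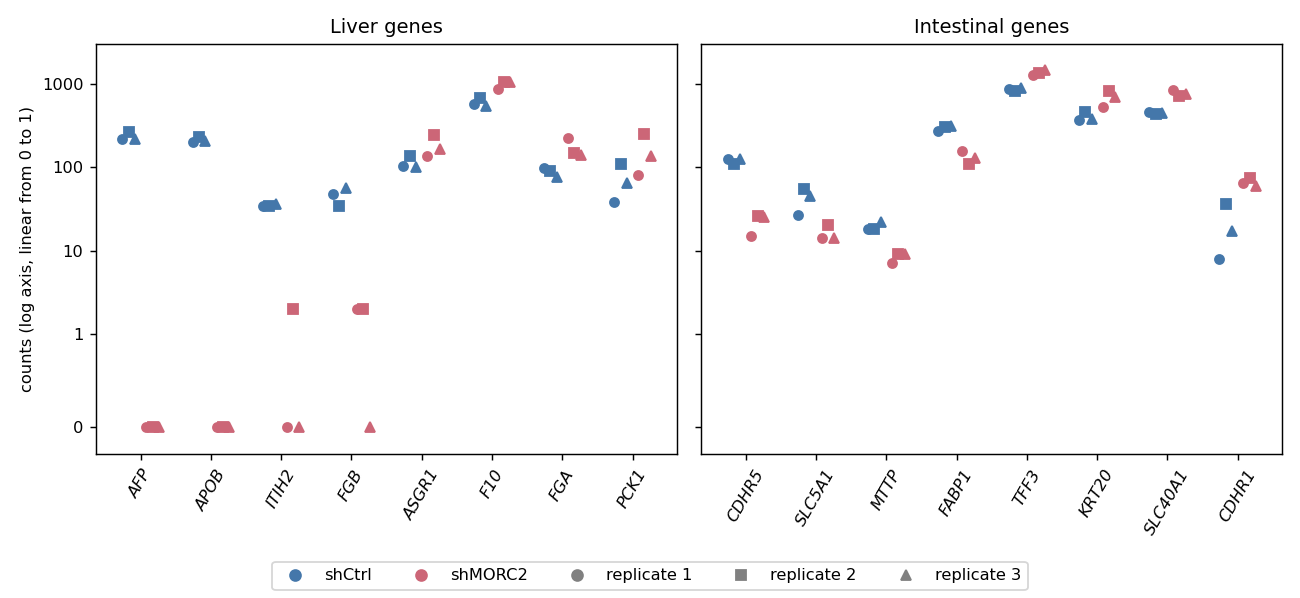
Counts in each library for the liver and intestinal genes named by the fixed rule, ordered by fold change (colour by group, shape by replicate number; log axis that is linear from 0 to 1). AFP and APOB stand at 202 to 262 counts in shCtrl and at 0 in every shMORC2 library.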

How the data were processed

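RNA of 3 shCtrl and 3 shMORC2 SW480 libraries was sequenced with a stranded mRNA kit. The authors deposited a table of raw counts per gene, made with Trimmomatic 0.36, STAR 2.5.3a and featureCounts (Subread 1.5.1) on GRCh38 according to the submitters' processing notes. The authors also deposited RPKM values, and these recompute from the counts, exon lengths and library totals. Annotation release and strand setting are not given in the sources used here. Of values from 1 to 20, 67.1% were even (17520 values of 2 against 6564 of 1), so the mates of a pair appear to have been counted singly, and counting intervals and floors, which cover counting error only, are too narrow. Tables of the authors' own splicing comparison were not used.

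Genes that passed edgeR's filterByExpr (21005) were tested with the quasi-likelihood test of edgeR 4.0.16 in R 4.3.3, with TMM scaling. The model held no term besides group, and p-values were adjusted over all of these genes by the Benjamini-Hochberg method. A gene was called at an adjusted p under 0.05. CPM used TMM-scaled library sizes. SEs were derived from the F statistic. Alternatives used DESeq2 1.42.0, limma 3.58.1 on log2(RPKM + 1) or log2(RPKM + 0.1), where a fold change understates that of low genes, other filters and scalings, a replicate block and the omission of each library. Ratios were tested by exact permutation in scipy 1.17.1. The members, gene lists and tests were chosen with earlier results of these data known. By rule, genes named from each list were up to 4 called genes per direction with the largest log2 fold change. They needed a mean of at least 10 counts. Any gene at 0 in all libraries of one group with a mean of at least 10 counts in the other was added. GATA2, GATA3, GATA4, SPDEF, VIL1, the markers, the neighbours and the other liver genes called lower were named outside this rule. For each tested factor, the 2 genes with the most similar pattern were named, except that 1 such gene is not reported here.

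No label says what a replicate number marks. Deviations from the group means correlated at 0.333, 0.165 and 0.149 between libraries numbered 1, 2 and 3, each over 0.1. A fit with the number as a block was therefore set beside the unpaired one. Its calls are given for each factor whose call changed. For paralogues, other factors, intestinal genes, liver genes and neighbours, only the number called is given. Values are from the unpaired fit unless the block is named. In simulated counts with these groups (20648 genes), the edgeR test recovered 43.1% of 72 genes changed by 0.5 on the log2 scale. It recovered 78.3% of 69 changed by 1 and 98.2% of 55 changed by 2, and made 14 false calls. The changed genes were few there, whereas 39.5% of the genes tested were called in the libraries. Recovery under so wide a change was not tested.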

Additional observations from a re-analysis of the deposited data

How the results depend on the processing

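FOXA2 and MORC2 kept their direction and call in all 16 alternatives. Of the named genes run under every alternative that tested them, VIL1, never called, changed sign, without shMORC2 replicate 1, and ranged from -0.081 to 0.015 with a library left out. HNF4G lost its call with DESeq2 (log2 fold change -0.54) and with limma without a filter (-0.20), and ranged from -0.70 to -0.42 when 1 library was left out. CDX2 lost it with limma at a pseudocount of 0.1 (0.44) and of 1 with or without the filter (0.36 in both), and ranged from 0.31 to 0.62. HNF4A ranged from -0.24 to -0.065 and KLF5 from -0.26 to -0.0062, both called without shCtrl replicate 1. GATA6 became called with counts halved, an alternative chosen after seeing the data (-0.58), with library sizes not scaled by TMM (-0.59), without the filter on low counts (-0.58) and with the replicate block (-0.58), and ranged from -0.72 to -0.37. The number of factors called was 1 in each of the 3 limma fits and from 1 to 5 with a library left out. With limma at a pseudocount of 0.1, at 1 and at 1 without the filter, the liver genes called were 4, 4 and 12, and the intestinal genes 6, 6 and 7. Of all genes, these fits called 6227 of 14816, 6269 of 14816 and 5454 of 36613 tested, so the genes tested differ between them. The paralogues called were 5 and 5 with the filter, the other factors 10 without it, and the neighbours 4 at 0.1 and 3 without it. A mean of at least 50 counts left 12 liver genes called, with 7461 of the 16206 genes tested called in that fit. The limma filter removes genes under a mean RPKM of 1, and the filter on 50 counts removes low genes. For the other changes the cause was not tested. Without 1 library, 3 to 7 neighbours were called, with 3 or 4 of them without shCtrl replicate 2 or 3 or shMORC2 replicate 2. Over all genes, from 5454 of 36613 tested (limma without the filter) to 10287 of 21005 tested (replicate block) were called. Pairing libraries by replicate number (replicate block) changed the call of GATA6 and of no other of the 8 factors. The block called 12 of 15 paralogues, 19 of 32 other factors, 15 of 26 intestinal genes and 21 of 32 liver genes. It called 9 of 16 neighbours, and 49.0% of all genes tested. The CDX1 to CDX2 and FOXA1 to FOXA2 ratios gave no value under any setting. FOXA3, ONECUT3, KRT20, SLC5A1 and FGA lost their calls only with limma without the filter (adjusted p from 0.056 to 0.1295). For 29 other named genes, 389 of 420 values kept the call and 31 lost it. For 12 more (the called neighbours, LINC00261, PDX1, VIL1, GATA2 and GATA3), 149 of 183 values kept their side of the threshold and their sign, 30 lost the call and 3 gained it.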
